A study of Mus musculus with 24 samples.

Results

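The 12 mouse brain tumours taken at day 0 form a full cross of an immunotoxin, D2C7-IT, with an antibody against CD40, aCD40, and the question here was which genes departed from the sum of the effects of the agents given alone. They are 12 of the 24 tumours of the series and were chosen by their label, with 3 tumours in each of 4 groups. All tumours grew from 200000 implanted cells of CT-vIII, a mouse glioma line made from CT-2A by adding firefly luciferase and the mouse form of EGFR variant III. Agents entered the brain from day 6 on through a pump that ran 72 h at 0.5 µl/h, and the tumours were removed on day 9 as the pumps came out. Combination tumours received D2C7-IT at 0.2 µg with aCD40, D2C7-IT tumours received 0.2 µg of the immunotoxin, aCD40 tumours received the antibody, and vehicle tumours received 2% serum albumin and 100 µg of an unspecific rat IgG2a. For aCD40 the labels give only a range, 10 to 300 µg, so doses may differ within the groups that received it. The labels describe the tumours as separate samples without naming the animals, so p-values measure the spread between these samples.

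CD40 is a receptor of dendritic cells, macrophages, B cells and activated endothelium, and its engagement switches on NF-kB and the cytokines, chemokines and adhesion molecules under its control. D2C7-IT joins an antibody fragment that binds EGFR and its variant III to a fragment of Pseudomonas exotoxin, which inactivates elongation factor 2 and stops protein synthesis in cells that take it up. Vessel walls in inflamed brain display selectins, release von Willebrand factor and recruit neutrophils and monocytes.

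For each gene the measure was a log2 contrast, the combination minus D2C7-IT minus aCD40 plus vehicle. A contrast of 0 means that the fold changes of the agents multiplied. A negative one means that the combination lay below that product (below additivity), and a positive one that it lay above. Equally, the contrast is the difference between adding aCD40 to D2C7-IT (combination minus D2C7-IT) and giving aCD40 alone (aCD40 minus vehicle). Levels are counts scaled to 1e6 per library and corrected for composition (CPM). They compare tumours for one gene and are not per length, so they do not rank genes.

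The 12 libraries held 24.7 to 47.8 M counts. Because the tissue was not sorted, fewer cells of a type and less RNA per cell cannot be told apart. The groups were not uniform in their makeup. Neuron markers, 18 genes, summed to 15992 to 21121 CPM in combination tumours, 15177 to 17266 CPM in D2C7-IT tumours, 15018 to 20254 CPM in aCD40 tumours and 17041 to 22382 CPM in vehicle tumours, so normal brain was present in every sample. The 24 cell cycle genes summed to 129.9 to 205.8 CPM in combination tumours, 242.6 to 307.1 CPM in D2C7-IT tumours, 96.5 to 396.3 CPM in aCD40 tumours and 104.6 to 369.0 CPM in vehicle tumours. Egfr, whose reads may include the mouse variant carried by the implanted cells, had 15.6, 23.003 and 14.7 CPM in combination tumours, 27.0, 46.3 and 35.8 CPM in D2C7-IT tumours, 15.4, 14.6 and 44.2 CPM in aCD40 tumours and 50.016, 15.9 and 18.5 CPM in vehicle tumours. The aCD40 tumour of 44.2 CPM (replicate 3) and the vehicle tumour of 50.016 CPM (replicate 1) stood apart from their groups. The part of this uneven makeup in the results was not tested.

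No gene passed the test of non-additivity. Of 20735 genes tested with edgeR's quasi-likelihood F test, 0 were called below additivity and 0 above at a Benjamini-Hochberg adjusted p under 0.05, which is 0% of the genes in each direction. At an unadjusted p under 0.05 there were 579 genes below, or 2.79% of those tested, and 184 above, or 0.887%. Together these were 763 genes, or 3.68%, which is less than the share of 0.05 that the threshold would give if no gene departed. Their number is therefore no sign of non-additivity by itself. Over all genes the contrasts were balanced, with 48.9% below 0 and a median of 0.01, so the 579 and the 184 are unequal tails of a centred distribution. With each tumour left out in turn, the low-p genes numbered 328 to 1089 below and 79 to 578 above, and without combination replicate 3 they were nearly even, at 666 below and 578 above. Those low-p genes kept the sign of their contrast when the group means were added in CPM without logarithms, in 579 of 579 genes below and 184 of 184 above. The tools differed: DESeq2's Wald test called 37 genes below and 1 above, whereas limma's voom with sample weights called 0 in each direction. Each of DESeq2's 37 genes had an unadjusted edgeR p of at most 0.00165, and those named below are marked as called by DESeq2.

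**Figure D1:**
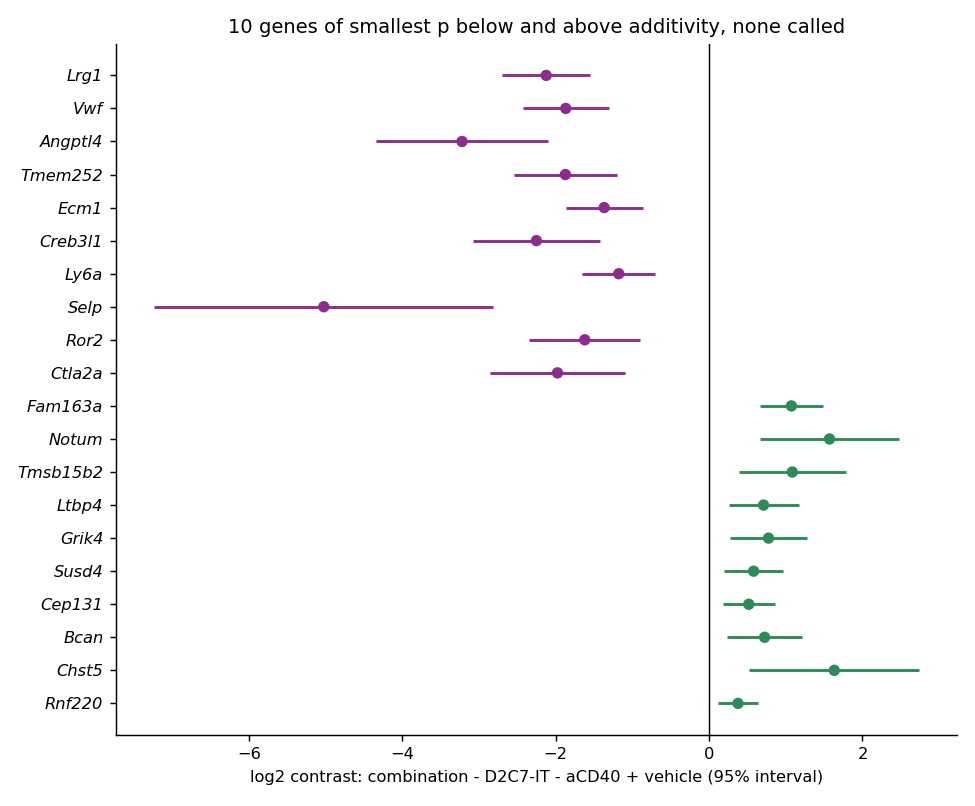
Log2 contrast (points) with its 95% interval (lines) from edgeR for the 10 genes of smallest p below additivity and the 10 of smallest p above, among genes of at least 1 CPM in a group. All 20 intervals lie on one side of 0 because the genes were picked at an unadjusted p under 0.05, and none passed after adjustment over 20735 genes. The contrasts below run from -5.03 for Selp to -1.18 for Ly6a, against 0.38 for Rnf220 to 1.63 for Chst5 above.

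The gene of smallest p was Lrg1 (ENSMUSG00000037095, chr17:56119678-56122001, GRCm38), which encodes leucine-rich alpha-2-glycoprotein, a secreted acute phase protein that also promotes vessel growth. It had 8.70, 9.27 and 6.89 CPM in combination tumours, 21.4, 18.1 and 15.3 CPM in D2C7-IT tumours, 8.67, 8.56 and 6.21 CPM in aCD40 tumours and 4.13, 3.76 and 3.97 CPM in vehicle tumours. Over all genes, the 6 single-agent tumours lay above the 3 vehicle tumours in 269 of 20735, or 1.3%. For Lrg1 both single agents lay above every vehicle tumour, and the combination overlapped aCD40 alone while lying below every D2C7-IT tumour. The contrast was -2.12 ± 0.26 (SE, n = 3 tumours a group; edgeR adjusted p = 0.16, DESeq2 adjusted p = 9.5e-10). Multiplied fold changes would have put the combination at 36.1 CPM, against an observed mean of 8.29 ± 1.2 CPM (SD, n = 3).

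Vwf (chr6:125546774-125686679) encodes von Willebrand factor, the clotting protein that endothelial cells store and release. It had 69.7, 112.1 and 82.2 CPM in combination tumours, 126.0, 114.8 and 129.3 CPM in D2C7-IT tumours, 109.5, 121.7 and 99.2 CPM in aCD40 tumours and 47.7, 45.0 and 33.9 CPM in vehicle tumours. The 9 treated tumours lay above the 3 vehicle tumours, and the combination mean was below each single-agent mean. Its contrast was -1.87 ± 0.25 (edgeR adjusted p = 0.19, called by DESeq2), with 321.5 CPM for multiplied fold changes. The same shape, in which each agent alone reached about the level of both, was seen in further vessel genes. Ly6a (chr15:74994877-74998031), which encodes the surface protein Sca-1 of vessel and stem cells and has near-identical relatives that can share its reads, averaged 79.3 ± 12 CPM in combination tumours, 64.7 ± 4.1 CPM in D2C7-IT tumours, 93.1 ± 6.6 CPM in aCD40 tumours and 33.5 ± 6.7 CPM in vehicle tumours. Pecam1, the endothelial adhesion molecule CD31, averaged 39.2 ± 4.8 CPM in combination tumours, 36.6 ± 2.6 CPM in D2C7-IT tumours, 42.9 ± 5.3 CPM in aCD40 tumours and 22.8 ± 1.7 CPM in vehicle tumours. The Ly6a contrast was -1.18 ± 0.22 and the Pecam1 contrast -0.81 ± 0.17, and both were called by DESeq2 and not by edgeR.

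Endothelial markers were little affected by any single tumour. Of 20 endothelial markers tested, 18 had a contrast below 0 and 9 an unadjusted p under 0.05 below, against 48.9% and 2.79% of all genes, with a median of -0.43 against 0.01 over all genes. The 9 were Vwf, Ly6a, Pecam1, the glucose transporter gene Slc2a1, the sialomucin gene Emcn, the junction genes Esam, Cldn5 and Cdh5, and Tie1, a receptor of the angiopoietin pathway. Leaving out each tumour in turn gave medians from -0.51 to -0.40. The summed level of the list was 839 to 950 CPM in combination tumours, 845 to 917 CPM in D2C7-IT tumours, 937 to 1086 CPM in aCD40 tumours and 615 to 708 CPM in vehicle tumours, so the vehicle tumours lay below all others. The VEGF receptor genes Flt1 and Kdr had contrasts of 0.04 and 0.01.

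Selp (chr1:164115264-164150026), the gene of P-selectin, which catches leukocytes on activated endothelium, had the lowest contrast of the 10 genes of smallest p. It had 2.15, 6.85 and 1.98 CPM in combination tumours, 17.6, 16.1 and 8.40 CPM in D2C7-IT tumours, 2.13, 1.96 and 1.46 CPM in aCD40 tumours and 0.396, 0.188 and 0 CPM in vehicle tumours. The D2C7-IT tumours were above all others, and the combination overlapped aCD40 alone. The contrast of -5.03 ± 1.00 (edgeR adjusted p = 0.76, called by DESeq2) rests on a vehicle group of 24 counts in all. All 17 genes tested for endothelial adhesion and activation had a contrast below 0, against 48.9% of all genes. Their median was -1.12 (-0.75 without aCD40 replicate 3). An unadjusted p under 0.05 was found in 6, against 2.79% of all genes in that direction. Besides Selp and Lrg1 the 6 included Angpt2, which destabilises vessels, Sele, the gene of E-selectin, and Vcam1, which binds leukocyte integrins.

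**Figure D2:**
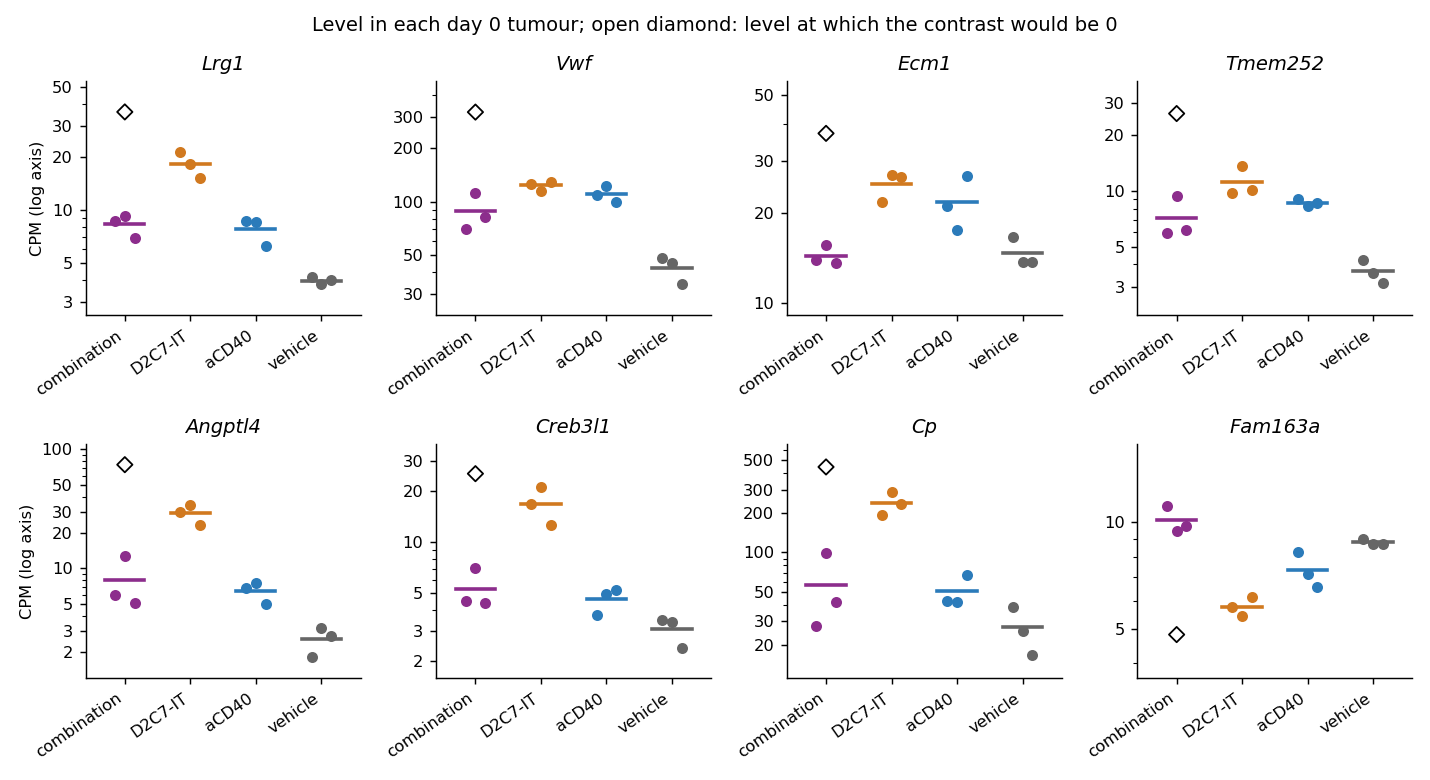
CPM on a log axis for each day 0 tumour (points) and the mean of each group (bars), with an open diamond at the combination level for which the contrast would be 0. Vwf and Tmem252 were high in every treated group, Ecm1 was high in the single-agent groups only, Angptl4, Creb3l1 and Cp stood highest in D2C7-IT tumours, and for Fam163a the diamond, at 4.82 CPM, lies below all 3 combination tumours.

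Of the other genes in the 10 of smallest p, Tmem252 (chr19:24674008-24682233), which encodes a transmembrane protein, averaged 7.16 ± 1.9 CPM in combination tumours, 11.2 ± 2.2 CPM in D2C7-IT tumours, 8.63 ± 0.39 CPM in aCD40 tumours and 3.67 ± 0.54 CPM in vehicle tumours. Ctla2a (chr13:60934155-60936625), a cysteine protease inhibitor gene with a close relative in Ctla2b that may share its reads, averaged 15.9 ± 3.1 CPM in combination tumours, 21.1 ± 4.6 CPM in D2C7-IT tumours, 21.4 ± 6.4 CPM in aCD40 tumours and 7.18 ± 2.2 CPM in vehicle tumours. In both genes all treated tumours lay above the vehicle tumours, where 1.3% of all genes had the 6 single-agent tumours above the 3 vehicle tumours. In Tmem252 and Ctla2a the combination mean was below each single-agent mean. Their contrasts were -1.88 ± 0.30 and -1.98 ± 0.40 (edgeR adjusted p = 0.39 and 0.76, both called by DESeq2).

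Ecm1 (chr3:95734147-95739569), which encodes an extracellular matrix protein, had a combination level that overlapped vehicle. It had 13.955, 15.6 and 13.6 CPM in combination tumours, 21.9, 26.9 and 26.5 CPM in D2C7-IT tumours, 21.3, 17.5 and 26.7 CPM in aCD40 tumours and 16.7, 13.7 and 13.8 CPM in vehicle tumours. Each agent alone lay above vehicle without overlap, and the combination lay below both single-agent groups without overlap and at the vehicle level (contrast -1.37 ± 0.23, edgeR adjusted p = 0.39, called by DESeq2). Single-agent tumours lay above both the vehicle and the combination tumours without overlap in 7 of the 20735 genes, 0.0338%, and 5, 0.0241%, showed its mirror image. The 7 included Slc2a1, which averaged 153 CPM in combination tumours, 169 CPM in D2C7-IT tumours, 180 CPM in aCD40 tumours and 134 CPM in vehicle tumours (contrast -0.56 ± 0.13, called by DESeq2). The others were Map3k2, a MAP kinase kinase kinase gene with a contrast of -0.33, Zbtb6, Arid5b, Snord89 and Gm44624, which were named because the count was small. Among the 5 of the mirror image was Fam163a. As wider background, all 3 combination tumours lay below all 6 single-agent tumours in 0.641% of genes and above them in 0.603%.

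The sequences before the start sites of low-contrast genes were read for motifs of inflammatory and growth signals. These genes were picked for a contrast below 0, so their shared direction comes from the selection and is no ground for a shared motif. RefSeq promoters (GRCm38.p6) were matched by symbol for 6 of the 10 genes of smallest p below additivity, Lrg1, Tmem252, Ecm1, Selp, Ror2 and Ctla2a, and the 250 bases before the start were searched on both strands. The AP-1 motif TGAGTCA was found in 3 of the 6, against 4.46% of all 32817 windows of that length, and the STAT motif TTCNNNGAA in 1 of 6, against 7.01%. A match is a description of letters and not evidence of binding. With 6 genes picked from these same contrasts, the difference from all windows was not tested. The 3 promoters that held a match follow, with AP-1 and STAT matches in capitals and no overlap between them.
Ecm1, minus strand of chr3:95739570-95739819: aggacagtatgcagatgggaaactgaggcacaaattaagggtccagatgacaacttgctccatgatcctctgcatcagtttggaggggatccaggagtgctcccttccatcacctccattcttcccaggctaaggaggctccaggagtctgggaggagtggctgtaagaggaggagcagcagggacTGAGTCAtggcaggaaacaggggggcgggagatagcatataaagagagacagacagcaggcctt
Ror2, minus strand of chr13:53286125-53286374: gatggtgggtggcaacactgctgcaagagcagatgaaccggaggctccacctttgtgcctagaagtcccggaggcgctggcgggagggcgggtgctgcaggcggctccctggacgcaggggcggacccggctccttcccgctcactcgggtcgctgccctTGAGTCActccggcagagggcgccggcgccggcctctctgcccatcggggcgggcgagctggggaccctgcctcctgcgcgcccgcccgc
Ctla2a, minus strand of chr13:60936626-60936875: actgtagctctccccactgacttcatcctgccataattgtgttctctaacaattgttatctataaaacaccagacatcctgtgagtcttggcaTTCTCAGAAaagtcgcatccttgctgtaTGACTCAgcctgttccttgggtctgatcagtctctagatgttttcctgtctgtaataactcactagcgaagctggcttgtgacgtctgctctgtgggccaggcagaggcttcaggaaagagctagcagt
In Ecm1 the AP-1 match ends 58 bases before the start, in Ror2 84 bases and in Ctla2a 123 bases, while the STAT match of Ctla2a ends 149 bases before it.

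A further shape was a high level in D2C7-IT tumours that was not reached when aCD40 was given as well. Angptl4 (chr17:33773750-33781830), which encodes a secreted inhibitor of lipoprotein lipase, had 6.01, 12.8 and 5.11 CPM in combination tumours, 29.8, 34.4 and 23.2 CPM in D2C7-IT tumours, 6.86, 7.58 and 5.02 CPM in aCD40 tumours and 1.79, 3.14 and 2.69 CPM in vehicle tumours. Creb3l1 (chr2:91982328-92024502), a transcription factor gene of the secretory pathway, had 4.51, 7.08 and 4.37 CPM in combination tumours, 16.8, 21.2 and 12.6 CPM in D2C7-IT tumours, 3.72, 4.96 and 5.26 CPM in aCD40 tumours and 3.47, 3.41 and 2.38 CPM in vehicle tumours. In both genes the 3 D2C7-IT tumours lay above the other 9, and the combination overlapped aCD40 alone. They were picked for low p on the contrast, and the share of all genes with this order was not counted, here or below. The contrasts were -3.22 ± 0.50 for Angptl4 and -2.25 ± 0.38 for Creb3l1 (edgeR adjusted p = 0.39 for each, both called by DESeq2). Ror2 (chr13:53109312-53286124), a Wnt5a receptor gene, had the same order at lower level, with 1.59 ± 0.21 CPM in combination tumours, 3.76 ± 0.77 CPM in D2C7-IT tumours, 1.27 ± 0.16 CPM in aCD40 tumours and 0.975 ± 0.16 CPM in vehicle tumours, and it was called by DESeq2 and not by edgeR.

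**Figure D3:**
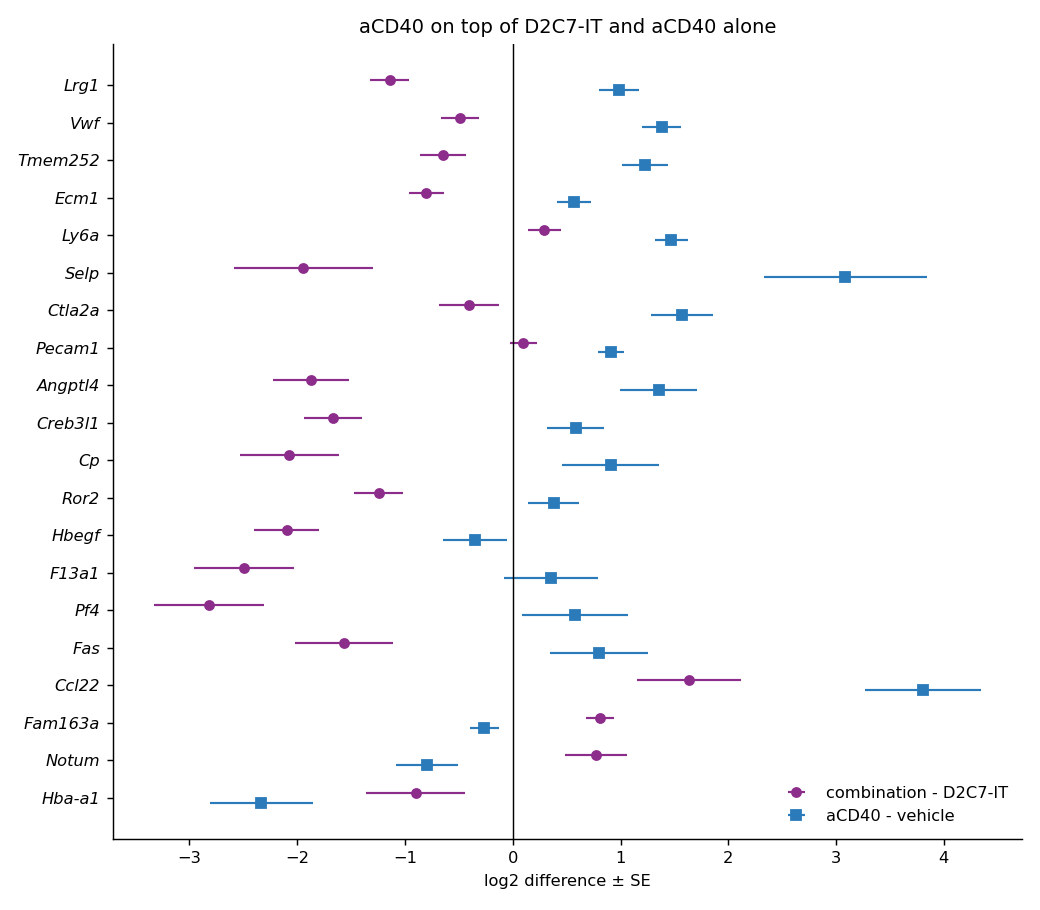
Log2 difference ± SE from edgeR for aCD40 added to D2C7-IT (circles, combination minus D2C7-IT) and for aCD40 alone (squares, aCD40 minus vehicle) in 20 named genes. The gap between the markers of a gene is its contrast, and for Lrg1 the circle stands at -1.14 and the square at 0.98, while for Hbegf both lie below 0, at -2.10 and -0.35.

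Given alone, aCD40 thus went with higher Lrg1, Vwf and Angptl4 than vehicle, and given on D2C7-IT it went with lower values of the same genes than D2C7-IT by itself. For Angptl4 the difference was 1.35 ± 0.36 for aCD40 minus vehicle and -1.87 ± 0.35 for combination minus D2C7-IT. For Hbegf, which encodes a ligand of EGFR, the difference was -0.35 ± 0.29 for aCD40 minus vehicle and -2.10 ± 0.30 for combination minus D2C7-IT. Its levels were 8.64, 16.04 and 10.5 CPM in combination tumours, 37.6, 58.0 and 54.8 CPM in D2C7-IT tumours, 13.1, 10.9 and 10.9 CPM in aCD40 tumours and 14.96, 19.9 and 9.49 CPM in vehicle tumours. All 3 D2C7-IT tumours stood above the other 9, which overlapped (contrast -1.75 ± 0.42, edgeR adjusted p = 0.77). Of 22 genes tested from the EGFR and MAPK feedback list, 16 were below 0, against 48.9% of all genes. An unadjusted p under 0.05 was found in 2, Hbegf and the early response gene Ier3, against 2.79% of all genes below additivity. The list's median was -0.16, with -0.41 without combination replicate 2 and -0.03 without combination replicate 3.

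Acute phase and STAT3 response genes, which the liver and reactive brain cells make under interleukin-6 family cytokines, had a median contrast of -2.20 (-1.43 without aCD40 replicate 3). Below 0 were 18 of 18 tested members, 10 of them at an unadjusted p under 0.05, against 48.9% and 2.79% of all genes. Cp encodes ceruloplasmin, a copper-carrying ferroxidase of plasma and astrocytes. Its levels were 27.9, 99.4 and 42.1 CPM in combination tumours, 191, 287 and 234 CPM in D2C7-IT tumours, 42.9, 42.0 and 67.3 CPM in aCD40 tumours and 38.8, 25.4 and 16.7 CPM in vehicle tumours. The D2C7-IT tumours lay above all others, and combination replicate 2 lay above the other combination tumours (contrast -2.98 ± 0.64, edgeR adjusted p = 0.76, called by DESeq2). Itih4, an inter-alpha-trypsin inhibitor heavy chain gene, had a contrast of -3.49 ± 0.83 that rests on 18 counts in the vehicle group. Its D2C7-IT tumours had 3.71, 1.22 and 0.871 CPM, and the contrast was -2.61 without D2C7-IT replicate 1, the highest of them. Other members with low p were Socs3, the feedback inhibitor of STAT3 signalling, at -1.86, Stat3 itself at -0.98, the iron-sequestering Lcn2 at -3.90, Saa3 at -3.46 and Timp1 at -3.37.

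The reactive astrocyte list, which shares Cp, Lcn2, Timp1 and Steap4 with the acute phase list, had a median of -1.42 (-0.87 without aCD40 replicate 3). Below 0 were 28 of 29 members, 9 of them at an unadjusted p under 0.05, against 48.9% and 2.79% of all genes. Osmr, the oncostatin M receptor gene, had 11.8, 31.9 and 12.8 CPM in combination tumours, 38.5, 51.7 and 43.6 CPM in D2C7-IT tumours, 13.6, 11.8 and 26.5 CPM in aCD40 tumours and 12.4, 10.97 and 6.62 CPM in vehicle tumours. The D2C7-IT group stood above all other tumours, and the contrast was -2.03 ± 0.60. Summed over the list, levels were 982 to 2691 CPM in combination tumours, 3616 to 4201 CPM in D2C7-IT tumours, 875 to 3490 CPM in aCD40 tumours and 694 to 1960 CPM in vehicle tumours. General astrocyte markers had a median contrast of -0.02, with 7 of 14 below 0 and 0 at an unadjusted p under 0.05.

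Cytokine receptors and cytokines lay below additivity in 21 of 22 genes tested, 10 at an unadjusted p under 0.05, against 48.9% and 2.79% of all genes. The median was -1.54 (-0.78 without aCD40 replicate 3). Il1r1, the signalling receptor gene for interleukin-1, had a contrast of -1.60 ± 0.38, and Il1r2, the decoy receptor gene, -1.91 ± 0.49. Il1r2 had 0.832, 0.899 and 0.567 CPM in combination tumours, 2.70, 3.63 and 2.15 CPM in D2C7-IT tumours, 0.612, 0.411 and 0.877 CPM in aCD40 tumours and 0.746, 0.671 and 0.441 CPM in vehicle tumours. The other 9 tumours overlapped, and the D2C7-IT tumours were apart above them. Il6 and Lif, cytokines that signal through STAT3, had contrasts of -4.29 and -3.59.

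The CD40 and NF-kB targets, the list closest to the antibody's receptor, had a median of -1.65 (-0.89 without aCD40 replicate 3). Below 0 were 24 of 25 members, 7 of them at an unadjusted p under 0.05, against 48.9% and 2.79% of all genes. Against vehicle the list's median was 1.05 for the combination, 1.99 for D2C7-IT and 0.43 for aCD40, as log2 differences. Ccl22, a chemokine of activated dendritic cells, differed from most members in being high with aCD40. It had 4.32, 7.02 and 7.15 CPM in combination tumours, 1.08, 1.96 and 2.92 CPM in D2C7-IT tumours, 7.08, 4.80 and 15.4 CPM in aCD40 tumours and 0.909, 0.483 and 0.530 CPM in vehicle tumours. The tumours that received aCD40 lay above those that did not, with or without D2C7-IT, and the contrast was -2.17 ± 0.69 (edgeR adjusted p = 0.99). Cd40 itself had 1.91, 11.1 and 4.31 CPM in combination tumours, 6.65, 11.1 and 8.68 CPM in D2C7-IT tumours, 1.596, 1.26 and 4.77 CPM in aCD40 tumours and 1.51, 1.18 and 0.971 CPM in vehicle tumours (contrast -1.66 ± 0.89, or -0.83 without aCD40 replicate 3 and -2.55 without combination replicate 2). All D2C7-IT tumours lay above all aCD40 and vehicle tumours, and the combination tumours lay above the vehicle tumours while overlapping each single-agent group.

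Among neutrophil chemokines and their receptors 7 of 7 genes tested were below 0, against 48.9% of all genes. An unadjusted p under 0.05 was found in 1, Cxcr2, against 2.79% of all genes in that direction. The median was -2.87 (-1.90 without aCD40 replicate 3). Genes with few counts outside D2C7-IT tumours, such as Cxcr2, could pass the filter through that group, which the contrast subtracts. The 7 of 7 is therefore no independent support for a direction. In this list 1 combination tumour stood far from the other combination tumours. Cxcl1, a ligand of CXCR2 that draws neutrophils, had 0.912, 25.0 and 0.799 CPM in combination tumours, 38.8, 73.0 and 58.3 CPM in D2C7-IT tumours, 0.692, 0.505 and 0.495 CPM in aCD40 tumours and 0.373, 0.215 and 0.177 CPM in vehicle tumours. Combination replicate 2 lay between the other combination tumours and the D2C7-IT tumours. The contrast was -3.75 ± 1.71 with all tumours (edgeR adjusted p = 0.99) and -7.12 without that tumour (edgeR adjusted p = 0.0019). Cxcl2, a related ligand, had 0.483, 10.0 and 0.483 CPM in combination tumours, 11.5, 22.1 and 16.3 CPM in D2C7-IT tumours, and 11 counts in all in aCD40 tumours and 3 counts in all in vehicle tumours. Without combination replicate 2, edgeR called 10 genes below additivity, which were Cxcl1, Angptl4, Vwf, Lrg1, Tmem252, the death receptor gene Fas, Ier3, Gch1, Foxs1 and Gadd45b.

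Neutrophil markers had 15 of 15 tested genes below 0 and 8 at an unadjusted p under 0.05, against 48.9% and 2.79% of all genes. Their median was -2.37, and 6 of the 21 listed genes, including Ly6g, were too low to test. Members with few counts could pass the filter through D2C7-IT tumours when high there, and the contrast subtracts that group. The count of 15 of 15 is therefore no independent support for a direction. S100a8 and S100a9 encode the subunits of calprotectin. S100a8 had 0.510, 1.85 and 0.399 CPM in combination tumours, 2.27, 2.14 and 1.46 CPM in D2C7-IT tumours, 0.745, 1.30 and 1.12 CPM in aCD40 tumours and 0.0466, 0.215 and 0.177 CPM in vehicle tumours. Every treated tumour lay above every vehicle tumour, and the contrast of -3.97 ± 0.90 rests on 14 counts in the vehicle group. The S100a9 contrast was -2.85 ± 0.64, and both genes were called by DESeq2 and not by edgeR. Cxcr2, the receptor gene, held 23 counts in combination tumours, 243 in D2C7-IT tumours, 14 in aCD40 tumours and 3 in vehicle tumours, so its fitted contrast of -5.32 depends on the prior count. Summed over the neutrophil list, levels were 10.2 to 24.3 CPM in combination tumours, 30.5 to 37.2 CPM in D2C7-IT tumours, 10.3 to 32.3 CPM in aCD40 tumours and 4.28 to 15.1 CPM in vehicle tumours.

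Monocyte and macrophage markers were below 0 in 20 of 21 genes tested, 7 at an unadjusted p under 0.05, against 48.9% and 2.79% of all genes. The median of these markers was -2.27, which was -0.73 without aCD40 replicate 3. Their summed level was 324 to 559 CPM in combination tumours, 575 to 1133 CPM in D2C7-IT tumours, 355 to 1231 CPM in aCD40 tumours and 200.1 to 696 CPM in vehicle tumours, with the D2C7-IT tumours above all combination tumours. Ccr2, the receptor that brings monocytes into tissue, had 1.69, 4.27 and 3.28 CPM in combination tumours, 13.4, 15.3 and 16.9 CPM in D2C7-IT tumours, 2.13, 1.52 and 7.47 CPM in aCD40 tumours and 6.39, 2.15 and 1.15 CPM in vehicle tumours. The D2C7-IT tumours stood apart above the rest (contrast -2.49 ± 0.97, edgeR adjusted p = 0.99, and -1.46 without aCD40 replicate 3). Arg1, the arginase of alternatively activated macrophages, had 0.295, 3.57 and 0.294 CPM in combination tumours, 5.42, 24.8 and 24.5 CPM in D2C7-IT tumours, 0.160, 3.41 and 6.77 CPM in aCD40 tumours and 0.653, 0.295 and 0.177 CPM in vehicle tumours. The spread within its groups was wide, and the contrast was -6.86 ± 1.84.

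Alternative and perivascular macrophage markers had a median of -1.28 with all tumours and -1.46 to -1.08 with each tumour left out in turn, and of -1.96 over the 12 members with at least 1 CPM in a group. Of 18 tested, 16 were below 0 and 8 had an unadjusted p under 0.05, against 48.9% and 2.79% of all genes. The 8 were Arg1, Pf4, F13a1, Mrc1, Msr1, Stab1, Clec10a and Siglec1. F13a1, which encodes a subunit of clotting factor XIII and marks tissue macrophages, had 3.41, 6.04 and 3.07 CPM in combination tumours, 14.8, 21.5 and 34.1 CPM in D2C7-IT tumours, 6.41, 5.31 and 15.4 CPM in aCD40 tumours and 8.20, 6.06 and 6.97 CPM in vehicle tumours. All 3 combination tumours lay below all 3 vehicle tumours, whereas 2 of the 3 D2C7-IT tumours lay above every other tumour. Pf4, the platelet factor 4 gene, had 0.349, 0.758 and 0.252 CPM in combination tumours, 2.04, 3.17 and 4.32 CPM in D2C7-IT tumours, 0.772, 0.600 and 1.46 CPM in aCD40 tumours and 0.676, 0.805 and 0.397 CPM in vehicle tumours. The contrasts were -2.85 ± 0.63 for F13a1 and -3.40 ± 0.70 for Pf4, both called by DESeq2 and not by edgeR. The summed level of the list was 49.2 to 82.2 CPM in combination tumours, 131.7 to 238.1 CPM in D2C7-IT tumours, 75.7 to 171.2 CPM in aCD40 tumours and 68.8 to 106.1 CPM in vehicle tumours. Microglia markers had a median of -0.23, with 0 of 15 at an unadjusted p under 0.05, and 0.09 without aCD40 replicate 3.

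Monocyte and lymphocyte chemokines and their receptors were below 0 in 17 of 20 genes tested, against 48.9% of all genes. Of the 17, 7 had an unadjusted p under 0.05, against 2.79% of all genes. The median was -1.48, which was -2.36 without combination replicate 2 and -0.47 without aCD40 replicate 3. Genes below 0 included Ccr1 at -3.49 ± 0.94, Ccl2, the main ligand of CCR2, at -2.98 and Ccl7 at -2.93. The 3 above 0 were Cxcl9, the interferon-induced ligand of CXCR3, at 0.65, Cxcl13 at 0.22 and Cx3cl1 at 0.14. All 16 complement genes were below 0, 7 at an unadjusted p under 0.05, against 48.9% and 2.79% of all genes, with a median of -1.17 (-0.51 without aCD40 replicate 3). Cfp, the gene of properdin, had 17.4, 23.5 and 19.9 CPM in combination tumours, 28.8, 30.5 and 32.2 CPM in D2C7-IT tumours, 26.1, 24.3 and 26.4 CPM in aCD40 tumours and 20.95, 24.4 and 24.8 CPM in vehicle tumours. The combination tumours lay below all 6 single-agent tumours, with a contrast of -0.72 ± 0.17. C3, the central complement component, had a contrast of -3.59.

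Matrix proteases and their inhibitors were below 0 in 17 of 18 genes tested, 7 at an unadjusted p under 0.05, against 48.9% and 2.79% of all genes. The median was -1.41 (-0.78 without aCD40 replicate 3). Mmp3, the gene of stromelysin-1, held 57 counts in combination tumours, 857 in D2C7-IT tumours, 8 in aCD40 tumours and 3 in vehicle tumours. The D2C7-IT tumours had 7.11, 9.75 and 3.17 CPM, above every other tumour, and the gene was called by DESeq2 and not by edgeR. Adamts1 and Adamts9, which cut proteoglycans, had contrasts of -1.30 ± 0.39 and -1.45 ± 0.39. In the p53 and death receptor list the median was -0.38 (-0.18 without aCD40 replicate 3). Of its 22 genes, 4 lay below 0 at an unadjusted p under 0.05, against 2.79% of all genes. Fas had 3.30, 12.9 and 4.04 CPM in combination tumours, 16.2, 23.8 and 19.7 CPM in D2C7-IT tumours, 3.46, 3.79 and 5.76 CPM in aCD40 tumours and 2.47, 2.71 and 2.30 CPM in vehicle tumours. The D2C7-IT tumours stood above the other 9, and combination replicate 2 came next (contrast -2.36 ± 0.64, edgeR adjusted p = 0.95). Mdm2, the p53 inhibitor, had a contrast of -0.40 ± 0.13.

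**Figure D4:**
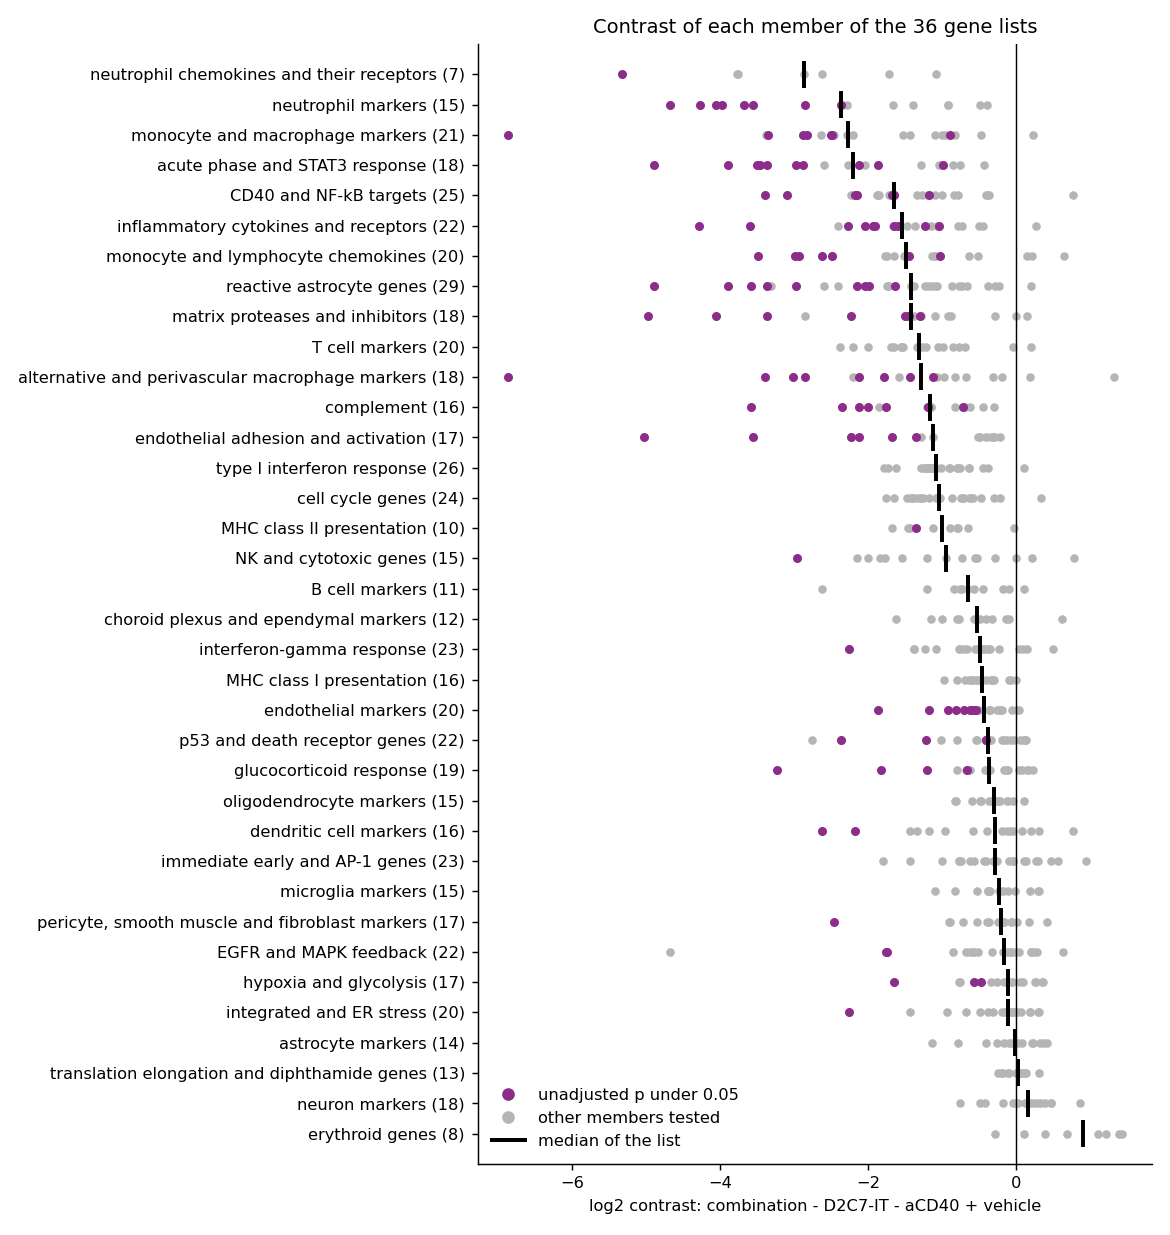
Log2 contrast of each tested member of the 36 gene lists (points, purple at an unadjusted p under 0.05), with the median of each list as a bar and the number tested in brackets. Lists of neutrophil, monocyte, acute phase and NF-kB genes have the lowest medians, from -2.87 to -1.65, the erythroid list has the highest at 0.90, and no member of any list was called by edgeR.

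In interferon and antigen presentation genes the medians changed sign or size with 1 aCD40 tumour. In the interferon-gamma response list 1 of 23 members, Gbp5, lay below 0 at an unadjusted p under 0.05, against 2.79% of all genes. The list had 19 of 23 members below 0, against 48.9% of all genes, and a median of -0.49. Without aCD40 replicate 3 its median was 0.43, that of MHC class I genes was 0.26 (-0.46 with all tumours) and that of MHC class II genes was 0.06 (-1.004 with all tumours). Without vehicle replicate 1 the interferon-gamma median was -0.93 and the MHC class I median -0.88. In MHC class II genes the summed level was 259 to 620 CPM in combination tumours, 457 to 485 CPM in D2C7-IT tumours, 273.1, 357.1 and 1407.7 CPM in aCD40 tumours and 227 to 488 CPM in vehicle tumours, with the 1407.7 CPM in replicate 3. H2-Ab1, an MHC class II chain gene, had 13.1, 28.003 and 63.9 CPM in combination tumours, 44.0, 47.8 and 37.3 CPM in D2C7-IT tumours, 19.8, 22.6 and 158.6 CPM in aCD40 tumours and 37.6, 24.5 and 15.007 CPM in vehicle tumours. The type I interferon list had 25 of 26 below 0, against 48.9% of all genes, with 0 at an unadjusted p under 0.05. Its median was -1.09, and -0.30 without aCD40 replicate 3. Cd274, the gene of PD-L1, had 13.3, 40.4 and 62.3 CPM in combination tumours, 15.1, 18.5 and 17.2 CPM in D2C7-IT tumours, 7.32, 13.6 and 49.3 CPM in aCD40 tumours and 10.4, 7.83 and 3.22 CPM in vehicle tumours. Its contrast was -0.51 ± 1.00, and the sign turned to 0.65 without aCD40 replicate 3 and to an excess of 5.40 CPM when the means were added in CPM.

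T cell markers had 19 of 20 members below 0, against 48.9% of all genes, but 0 at an unadjusted p under 0.05. Their median of -1.32 was -0.25 without aCD40 replicate 3 and -2.24 without combination replicate 2. Cell cycle genes had 23 of 24 below 0, against the same 48.9%, with 0 at an unadjusted p under 0.05. The cell cycle median of -1.04 was 0.21 without aCD40 replicate 3 and -2.002 without vehicle replicate 1. The cell cycle sums given above spread widely within the aCD40 and vehicle groups. The T cell marker sums were 448 to 727 CPM in combination tumours, 527 to 650.4 CPM in D2C7-IT tumours, 535 to 677 CPM in aCD40 tumours and 589 to 687 CPM in vehicle tumours, so all groups overlapped. The highest group means, in D2C7-IT tumours, were only 16.4 CPM for Cd4, 1.56 CPM for Cd247 and 0.709 CPM for Cd28. Other members therefore carry the sums, which are not read here as T cell levels. Among the other immune lists, the median was -0.95 for natural killer and cytotoxic genes (0.12 without aCD40 replicate 3), -0.65 for B cell markers (-0.14 without it) and -0.29 for dendritic cell markers (-0.65 without combination replicate 2).

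**Figure D5:**
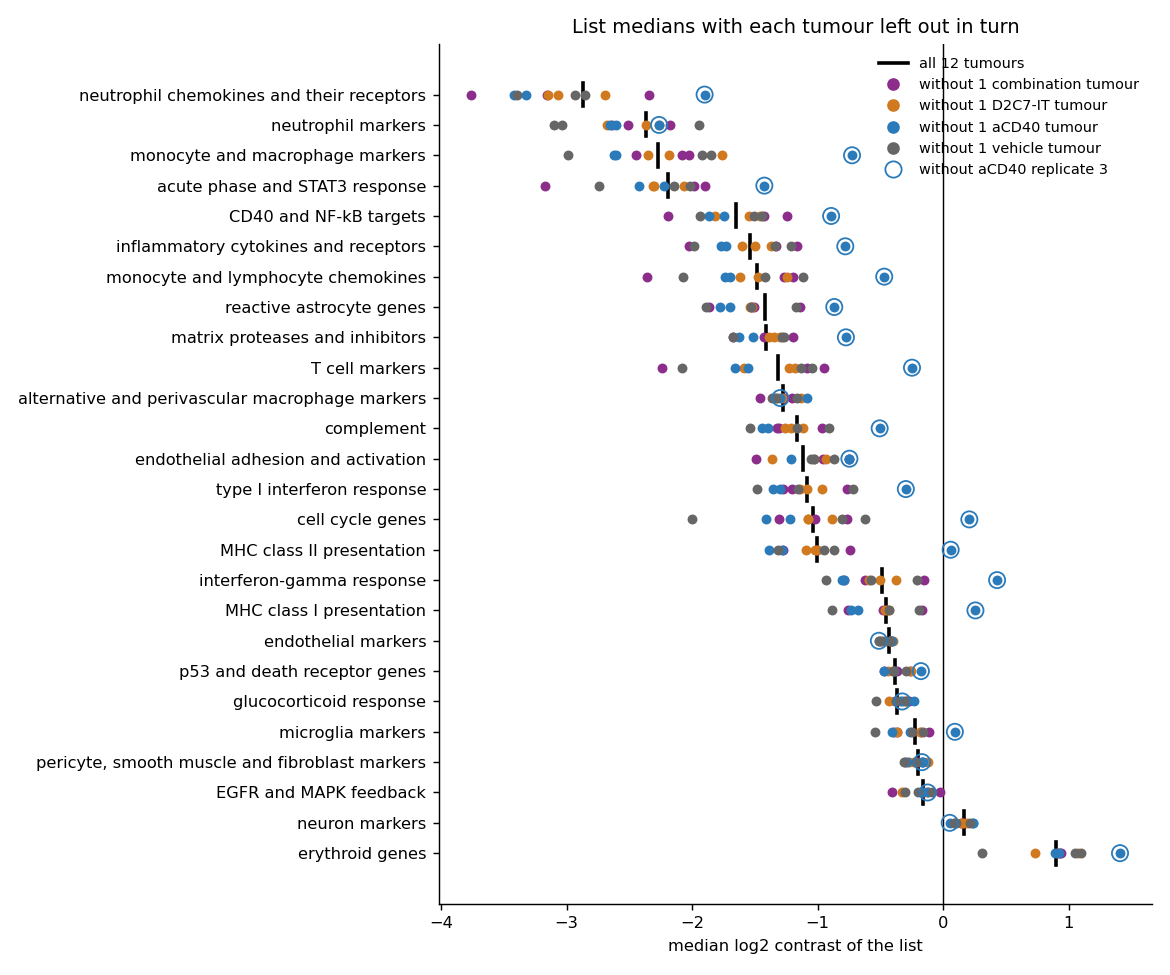
Median log2 contrast of each list with all 12 tumours (bar) and with each tumour left out in turn (points, coloured by the group of the tumour left out; ring, aCD40 replicate 3). Endothelial markers stay between -0.51 and -0.40, whereas leaving out aCD40 replicate 3 takes monocyte and macrophage markers to -0.73 and the interferon-gamma, MHC and cell cycle lists above 0.

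Above additivity the values were smaller. Fam163a (chr1:156075966-156205026), which encodes a small membrane protein, had the smallest p in that direction. It had 11.1, 9.47 and 9.79 CPM in combination tumours, 5.75, 5.44 and 6.16 CPM in D2C7-IT tumours, 8.25, 7.17 and 6.57 CPM in aCD40 tumours and 8.97, 8.72 and 8.70 CPM in vehicle tumours. Each agent alone lay below vehicle without overlap, and the combination lay above vehicle without overlap (contrast 1.07 ± 0.19, edgeR adjusted p = 0.47, DESeq2 adjusted p = 1.2e-05). Notum, the gene of an enzyme that inactivates Wnt proteins, averaged 2.77 ± 0.72 CPM in combination tumours, 1.62 ± 0.59 CPM in D2C7-IT tumours, 2.11 ± 0.14 CPM in aCD40 tumours and 3.66 ± 0.61 CPM in vehicle tumours (contrast 1.57 ± 0.41). Here the combination lay nearer to vehicle than either agent alone did.

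Some further genes above additivity are known from brain tissue. Bcan, the gene of the brain proteoglycan brevican, averaged 248 ± 32 CPM in combination tumours, 171 ± 9.8 CPM in D2C7-IT tumours, 271 ± 44 CPM in aCD40 tumours and 308 ± 45 CPM in vehicle tumours. The D2C7-IT tumours were the lowest 3, and the contrast was 0.72 ± 0.22. Grik4, a kainate receptor subunit gene, and Susd4, a complement regulator gene, had contrasts of 0.77 ± 0.23 and 0.58 ± 0.17. The remaining genes of the 10 were Tmsb15b2 at 1.08, Ltbp4, a binding protein gene of latent TGF-beta, at 0.71, the centrosome gene Cep131 at 0.52, the sulfotransferase gene Chst5 at 1.63 and the ubiquitin ligase gene Rnf220 at 0.38. None of the last 9 genes was called by DESeq2 or edgeR, with edgeR adjusted p from 0.90 to 0.99. Neuron markers as a list had 13 of 18 above 0, where 48.9% of all genes lay below 0. Their median was 0.17 (0.05 without aCD40 replicate 3), with 0 at an unadjusted p under 0.05.

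Erythroid genes were the list of highest median, 0.90, with 7 of 8 tested members above 0 and 0 at an unadjusted p under 0.05. Over all genes, 48.9% lay below 0. Hba-a1, an alpha-globin gene whose near-identical copy Hba-a2 can share its reads, had 3.999, 5.62 and 5.72 CPM in combination tumours, 6.91, 12.3 and 9.46 CPM in D2C7-IT tumours, 3.43, 2.84 and 4.003 CPM in aCD40 tumours and 7.53, 11.8 and 32.7 CPM in vehicle tumours. The vehicle tumours lay above all aCD40 and combination tumours. The contrast was 1.43 ± 0.65 with all tumours and 0.59 without vehicle replicate 3, the tumour of 32.7 CPM, and the list median was 0.31 without it and 1.41 without aCD40 replicate 3. Eef2, the gene of the elongation factor that the toxin inactivates at the protein level, averaged 1253 CPM in combination tumours, 1229 CPM in D2C7-IT tumours, 1316 CPM in aCD40 tumours and 1339 CPM in vehicle tumours. Its contrast was 0.05 ± 0.17, with a 95% interval of -0.32 to 0.42. The remaining lists had medians of -0.53 for choroid plexus and ependymal markers (1.84 without aCD40 replicate 3), -0.36 for the glucocorticoid response (-0.23 without aCD40 replicate 1), -0.29 for oligodendrocyte markers (0.04 without combination replicate 1 and -0.67 without combination replicate 3), -0.28 for immediate early genes (-0.85 without combination replicate 2 and -0.07 without combination replicate 3), -0.20 for pericyte and smooth muscle markers (-0.31 without vehicle replicate 1 and -0.12 without D2C7-IT replicate 3), -0.11 for integrated and ER stress genes (-0.23 without combination replicate 3 and -0.02 without combination replicate 2), -0.11 for hypoxia and glycolysis genes (-0.07 without combination replicate 2) and 0.02 for translation elongation genes (-0.04 without combination replicate 3). In the glucocorticoid list the metal-binding genes Mt2 and Mt1 had contrasts of -1.82 ± 0.45 and -1.20 ± 0.30.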

How the data were processed

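RNA-seq read counts per Ensembl gene were analysed for the 12 day 0 tumours. The authors deposited raw counts, whole numbers without normalization. GRCm38, STAR 2.5.2b, featureCounts (Subread 1.5.2), Trimmomatic 0.36 and bcl2fastq 2.17 are listed in the submitters' processing notes. Libraries were made from oligo(dT)-enriched RNA with a kit that does not mark strand, per the labels' protocols, so overlapping genes cannot be told apart. No source used here names the annotation release, and symbols and positions came from GENCODE M21. Library totals, 24.7 to 47.8 M, set the counting precision.

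In R 4.3.3, edgeR 4.0.16 (filterByExpr, TMM, robust quasi-likelihood F test, 8 residual degrees of freedom) fitted one mean per group, and the contrast was tested two-sided over 20735 of 49315 genes with Benjamini-Hochberg adjustment at 0.05. SE and 95% intervals come from that fit, at edgeR's prior count of 0.125. Differences between single groups are given without a call. Because the filter was applied by group, a gene with counts in D2C7-IT tumours alone could be kept, and the contrast of such a gene tends below 0. DESeq2 1.42.0 and limma 3.58.1, other size factors and filters, all 24 libraries, a replicate block, each tumour left out and a linear CPM scale were alternatives. The scripts were tested on simulated data with less spread between replicates than these tumours had. That test checked the code and does not show what this design could detect. Replicate tumours differed by far more than sampling noise (chi-square per degree of freedom at least 39.32).

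Named genes were up to 15 called in each direction, filled to 10 by smallest unadjusted p under 0.05 among genes of at least 1 CPM in a group without a predicted or clone name, up to 3 members of smallest p per described list, and Egfr, Cd40, Eef2, Cd274, Cxcl1, Cxcl2, Vwf and Hba-a1. Other list members, the genes called by DESeq2 or without 1 tumour, and the genes of the non-overlap counts were named after their values were seen. The members and the 36 lists were chosen with earlier results of these data known, and lists share members. Sequences are RefSeq promoters.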

Additional observations from a re-analysis of the deposited data

How the results depend on the processing

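The count of genes called was 0 below and 0 above additivity with edgeR, and stayed 0 in each direction with DESeq2's size factors, without the filter on low counts (36089 genes), with at least 1 CPM in a group (16667 genes), over all 24 libraries and with limma's voom. DESeq2's Wald test called 37 below and 1 above, and the cause was not tested. With each tumour left out in turn the calls ran from 0 to 10 below and from 0 to 0 above, with the 10 without combination replicate 2. Genes at an unadjusted edgeR p under 0.05, 579 below and 184 above, numbered 236 and 82 over all 24 libraries. The replicate number as a block gave 0 calls below and 0 above, with 419 and 119 genes at an unadjusted p under 0.05. Tumours with the same number did not deviate together: their correlations ran from -0.55 to 0.41, 5 of 18 were over 0.1, and 3 of 12 libraries correlated best with their own number. The labels do not say what the number stands for, and such correlations cannot show whether tumours were paired by design.

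Among the named genes the sign of the contrast turned for Cd274 to 5.40 CPM on the linear scale. With each tumour left out it ran from -1.04 to 0.65 for Cd274 and from -0.78 to 0.11 for Tapbp, an MHC class I loading gene, both highest without aCD40 replicate 3, and from -0.035 to 0.13 for Eef2, lowest without combination replicate 3. With sample weights in limma the list medians were -2.90 for neutrophil markers, -1.33 for monocyte and macrophage markers and -0.69 for endothelial adhesion genes, and with at least 1 CPM in a group the alternative macrophage median was -1.96 over 12 genes. The design has 3 tumours a group, and no detection limit was measured.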
